A study of Homo sapiens with 24 samples.

Results

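The KDM5C and YY1 double knockdown was examined in HK-2 cells, an established line of human kidney proximal tubular epithelial cells that was immortalised with papillomavirus oncogenes. Its 6 libraries were taken by their labels from the 24 libraries of the series: 3 replicates of HK2_shNC, cells that carry a control hairpin, and 3 replicates of HK2_Dsh, cells in which both genes were knocked down. Both groups were stable lentiviral lines grown in high-glucose DMEM with fetal bovine serum and selected with puromycin, and the doubly depleted line was made by infecting YY1-depleted cells with a KDM5C hairpin on a GFP-marked plasmid and selecting for puromycin resistance and green fluorescence. The hairpin used for each library, and whether the shNC cells carried a GFP vector, are not given in the sources used here. The study states in general that quantitative experiments were repeated independently, but the sources used here do not say whether the replicate libraries came from separate infections or cultures, so p-values measure the spread between these libraries, which may be technical. Between 16675904 and 18755684 read pairs per library were counted on genes. The share of counts on the mitochondrial genome was 5.14 to 5.52% in shNC and 4.75 to 4.79% in Dsh libraries, and no library of either group stood apart from the others.

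KDM5C is a demethylase of the Jumonji family that removes methyl groups from di- and trimethylated lysine 4 of histone H3, marks found at active promoters and enhancers, and it is usually described as a repressor. YY1 is a zinc finger transcription factor that activates or represses its target genes depending on the cofactors it meets, among them the INO80 remodelling complex and Polycomb proteins, and it also takes part in contacts between enhancers and promoters. The proximal tubule, from which HK-2 cells derive, reabsorbs most of the filtered sodium, glucose, amino acids and protein, and its cells change their adhesion, matrix and inflammatory genes when the kidney is injured. The comparison asks which genes change when the demethylase and the transcription factor are lost together, where more genes were higher than lower in these cells.

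Both targeted transcripts were reduced to a like extent. KDM5C (ENSG00000126012, chrX:53191321-53225422, minus strand of GRCh38) was at 193, 191 and 197 CPM in shNC and 68.2, 65.8 and 72.2 CPM in Dsh libraries (CPM, counts scaled to library size by TMM), and YY1 (ENSG00000100811, chr14:100238298-100282792, plus strand) at 214, 215 and 203 CPM in shNC and 76.0, 75.5 and 73.1 CPM in Dsh libraries. No Dsh library overlapped the shNC libraries for either gene, and the means went from 194 ± 2.89 to 68.8 ± 3.24 CPM for KDM5C and from 211 ± 6.88 to 74.9 ± 1.55 CPM for YY1 (SD, n = 3), with a log2 fold change of -1.49 for each. Of the close relatives, KDM5B, another demethylase of the same histone mark, rose from 126 to 190.5 CPM (log2 fold change 0.61 ± 0.047 SE, adjusted p = 2.43e-12, from edgeR's quasi-likelihood test, adjusted by the Benjamini-Hochberg method, as throughout). KDM5A had 90.9 and 91.2 CPM (adjusted p = 0.872). YY2, a retrogene copy of YY1, had 4.86 and 3.6 CPM (adjusted p = 0.094), and ZFP42 had no counts in any of the 6 libraries.

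The label of a proximal tubular line was borne out only in part by its markers. The kidney lineage factor PAX8 was abundant, at 257 CPM in shNC cells, as was the brush border enzyme GGT1 at 204 CPM, which has near-identical copies that can share its reads. LRP2 and CUBN, the endocytic receptors megalin and cubilin, had at most 1 and 8 counts in a library, AQP1 and ANPEP at most 8 and 7, and the transcription factor HNF4A at most 4. Of 46 proximal tubule genes listed, 22 failed the filter on low counts. Among the 24 tested, 11 were higher and 6 lower in Dsh cells. PAX8 rose slightly (log2 fold change 0.27, adjusted p = 3.92e-06), PAX2, a developmental kidney factor, fell from 9.81 to 1.84 CPM (-2.40, SE 0.22, adjusted p = 7.87e-11), and PDZK1, a scaffold of apical transporters, fell from 94.1 to 40.8 CPM (log2 fold change -1.20). The peptidases ENPEP and DPP4 of the brush border rose, from 1.49 to 6.43 CPM and from 153 to 295 CPM. UMOD and AQP2, which mark other nephron segments, had no counts, and PTPRC, CD3E, CDH5, VWF and CD68, of leukocytes and endothelium, had at most 4 in any library.

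Among 16217 genes tested, 398 were higher (2.45%) and 299 were lower (1.84%) in Dsh cells at an adjusted p-value under 0.05 with a log2 fold change of 1.5 or more in size, called the fold threshold here. With no demand on the fold, 4128 genes were higher (25.5%) and 3945 lower (24.3%), or 8073 in all (49.8%), so the excess of higher genes belonged mainly to the large changes: higher genes made up 57.1% of those past the fold threshold and 51.1% of those at any fold. These shares depend on the scaling. With library totals in place of TMM factors they were 54.2% and 45.9%, since that scaling moved the median of all genes by -0.037 on the log2 scale. The excess was found at high expression: among genes with a mean of at least 100 CPM over the 6 libraries, 32 were higher and 8 lower past the fold threshold, and between 10 and 100 CPM 98 were higher and 52 lower. Between 1 and 10 CPM the counts were 164 and 144, and under 1 CPM 104 and 95. Long noncoding RNAs added to it, with 94 higher and 40 lower of 1802 tested, against 265 higher and 240 lower of 13019 protein-coding genes, although counting without strand cannot separate an antisense RNA from its partner gene. The libraries of the groups overlapped for 6 of the 398 higher and 5 of the 299 lower genes. Over all genes tested they did not overlap for 4496 with Dsh higher (27.7%) and 4550 with Dsh lower (28.1%). Near the threshold, among protein-coding genes with at least 10 CPM in the higher group, SLC6A9 and SEPTIN3 were just inside at 1.501 and 1.51, and CPD and TMEM273 just outside at 1.49, while DHRS9 and HSP90AA1 were just inside at -1.501 and -1.511, and NEFH and NAPSA just outside at -1.499 and -1.496.

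**Figure D1:**
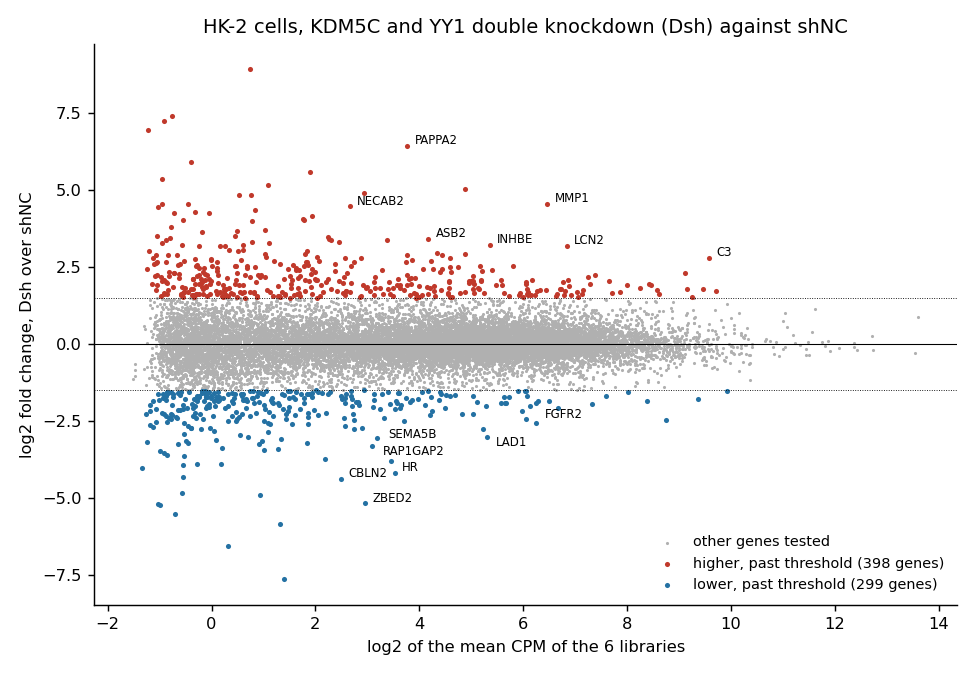
Log2 fold change of Dsh over shNC (vertical axis) against the log2 of the mean CPM of the 6 libraries (horizontal axis) for the 16217 genes tested, each point being 1 gene. Red and blue points are the 398 higher and 299 lower genes past the fold threshold (dotted lines), and red points outnumber blue ones most clearly at the right, where 32 higher and 8 lower genes had at least 100 CPM.

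Among protein-coding genes with at least 10 CPM in the higher group, the 12 with the largest increases encode proteins of several kinds, secreted, membrane and intracellular. PAPPA2, a metalloproteinase that cleaves insulin-like growth factor binding proteins, was at 0.223, 0.280 and 0.417 CPM in shNC and 25.5, 27.4 and 28.0 CPM in Dsh libraries (log2 fold change 6.42 ± 0.20 SE, adjusted p = 1.23e-21). MMP1, the interstitial collagenase, was at 6.68, 6.78 and 8.34 CPM in shNC and 174, 159 and 175 CPM in Dsh libraries (log2 fold change 4.54 ± 0.078 SE, adjusted p = 5.25e-28). PAPPA2 had 4 to 8 counts in a shNC library, near the bottom of the measurable range, while MMP1 had 120 to 160, and both were far higher in each of the Dsh libraries. LCN2, the iron-siderophore carrier known as a marker of tubule injury, was at 22.3, 23.7 and 22.4 CPM in shNC and 199, 226 and 195 CPM in Dsh libraries, a 9.12-fold increase (log2 fold change 3.19, adjusted p = 3.39e-26). C3, the central complement component, was at 188, 190.5 and 202 CPM in shNC and 1281, 1400 and 1356 CPM in Dsh libraries, a 6.98-fold increase (log2 fold change 2.80, adjusted p = 7.84e-29). INHBE, an inhibin subunit made in response to cell stress, was at 8.46, 6.5 and 8.96 CPM in shNC and 79.0, 76.4 and 67.9 CPM in Dsh libraries (log2 fold change 3.23). The groups did not overlap for any of these genes, and the spread within a group was small beside the difference. The other genes of this kind were NECAB2 (0.550 to 12.1 CPM), ASB2 (3.11 to 33.0 CPM), the tetraspanin CD82 (4.67 to 35.8 CPM), the pattern receptor CLEC4E (6.94 to 52.4 CPM), the complement protease C1R (5.19 to 38.4 CPM), GOLGA7B (3.29 to 24.0 CPM) and SLN, which encodes the calcium pump regulator sarcolipin (1.84 to 12.8 CPM).

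The largest decreases included adhesion, guidance and receptor genes. ZBED2, a zinc finger transcription factor, was at 12.6, 17.5 and 15.1 CPM in shNC and 0.416, 0.648 and 0.172 CPM in Dsh libraries (log2 fold change -5.17 ± 0.26 SE, adjusted p = 7.95e-17). HR, a corepressor of nuclear receptors with a Jumonji domain, was at 24.3, 20.1 and 21.5 CPM in shNC and 0.655, 1.47 and 1.49 CPM in Dsh libraries (log2 fold change -4.17, adjusted p = 8.38e-18). LAD1, which encodes the basement membrane anchor ladinin, was at 70.3, 73.2 and 67.5 CPM in shNC and 8.81, 9.49 and 7.98 CPM in Dsh libraries (log2 fold change -3.0). These 3 genes were low in every Dsh library and high in every shNC library. FGFR2, a fibroblast growth factor receptor, was at 131, 129 and 130.1 CPM in shNC and 25, 16.8 and 23.6 CPM in Dsh libraries (log2 fold change -2.57 ± 0.082 SE, adjusted p = 1.53e-21), so that its highest Dsh value was still far under its lowest shNC value. SEMA5B and SLIT2, secreted or membrane guidance cues, fell from 16.2 to 1.96 CPM and from 22.1 to 3.92 CPM. CBLN2 fell from 10.8 to 0.511 CPM, RAP1GAP2 from 15.5 to 1.57 CPM, LYNX1 from 11.8 to 1.73 CPM, ADAMTS15 from 65.2 to 9.70 CPM, NEBL from 13 to 1.96 CPM and EPPK1, which encodes the cytoskeletal linker epiplakin, from 10.2 to 1.6 CPM.

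The single knockdowns share the shNC libraries with the double knockdown, so their levels are given side by side with no test, and shKDM5C replicate 1 stood apart from its group with 11.8% of its counts on the mitochondrial genome. MMP1 was at 5.98 CPM with shKDM5C, 10.1 CPM with shYY1 and 169 CPM with both. PAPPA2 was at 0.357, 5.79 and 26.9 CPM in that order, and INHBE at 5.79, 6.99 and 74.4 CPM. For MMP1 and INHBE both single knockdowns lay nearer to the shNC means of 7.27 and 7.97 CPM than to the Dsh level. PAPPA2 with shYY1 was well above its shNC mean of 0.31 CPM, though still under its Dsh level. C3 was at 816 CPM with shKDM5C and 202 CPM with shYY1, LCN2 at 106 and 31.1 CPM, so the shKDM5C libraries lay between shNC and Dsh. Among the lower genes, LAD1 was at 66.5 and 16.9 CPM and HR at 13.7 and 4.68 CPM, with shYY1 the nearer to the Dsh level, while FGFR2 was at 111 and 89.1 CPM and remained well above its Dsh mean of 21.8 CPM in both.

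**Figure D2:**
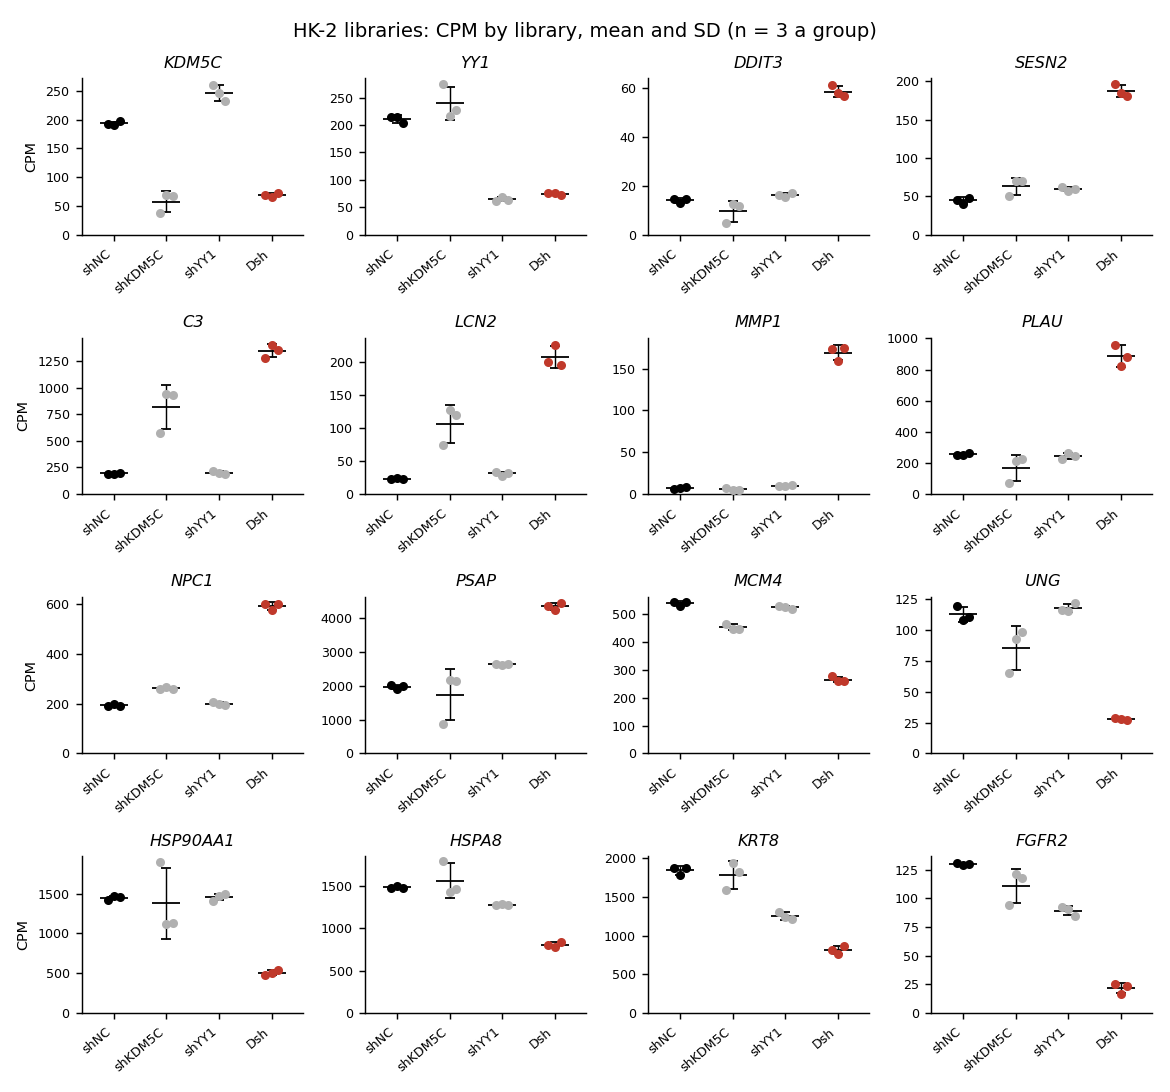
CPM (vertical axes, each starting at 0) of 16 genes in the HK-2 libraries, with 1 point per library, a bar for the mean and whiskers for the SD (n = 3 in each of shNC, shKDM5C, shYY1 and Dsh). KDM5C and YY1 are low in Dsh, and DDIT3, SESN2, MMP1, PLAU and NPC1 are high in Dsh with both single knockdowns near shNC, while UNG, MCM4, HSP90AA1, HSPA8 and FGFR2 are lowest in Dsh.

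Genes were then read by pathway, with 44 lists that hold 1489 genes, of which 1227 were tested. Each count below stands against the 25.5% of all genes that were higher and the 24.3% that were lower at any fold, with a median log2 fold change of -0.0026 over all genes tested. In bulk RNA, fewer cells of a type or in a phase of the cycle and less RNA per cell cannot be told apart.

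**Figure D3:**
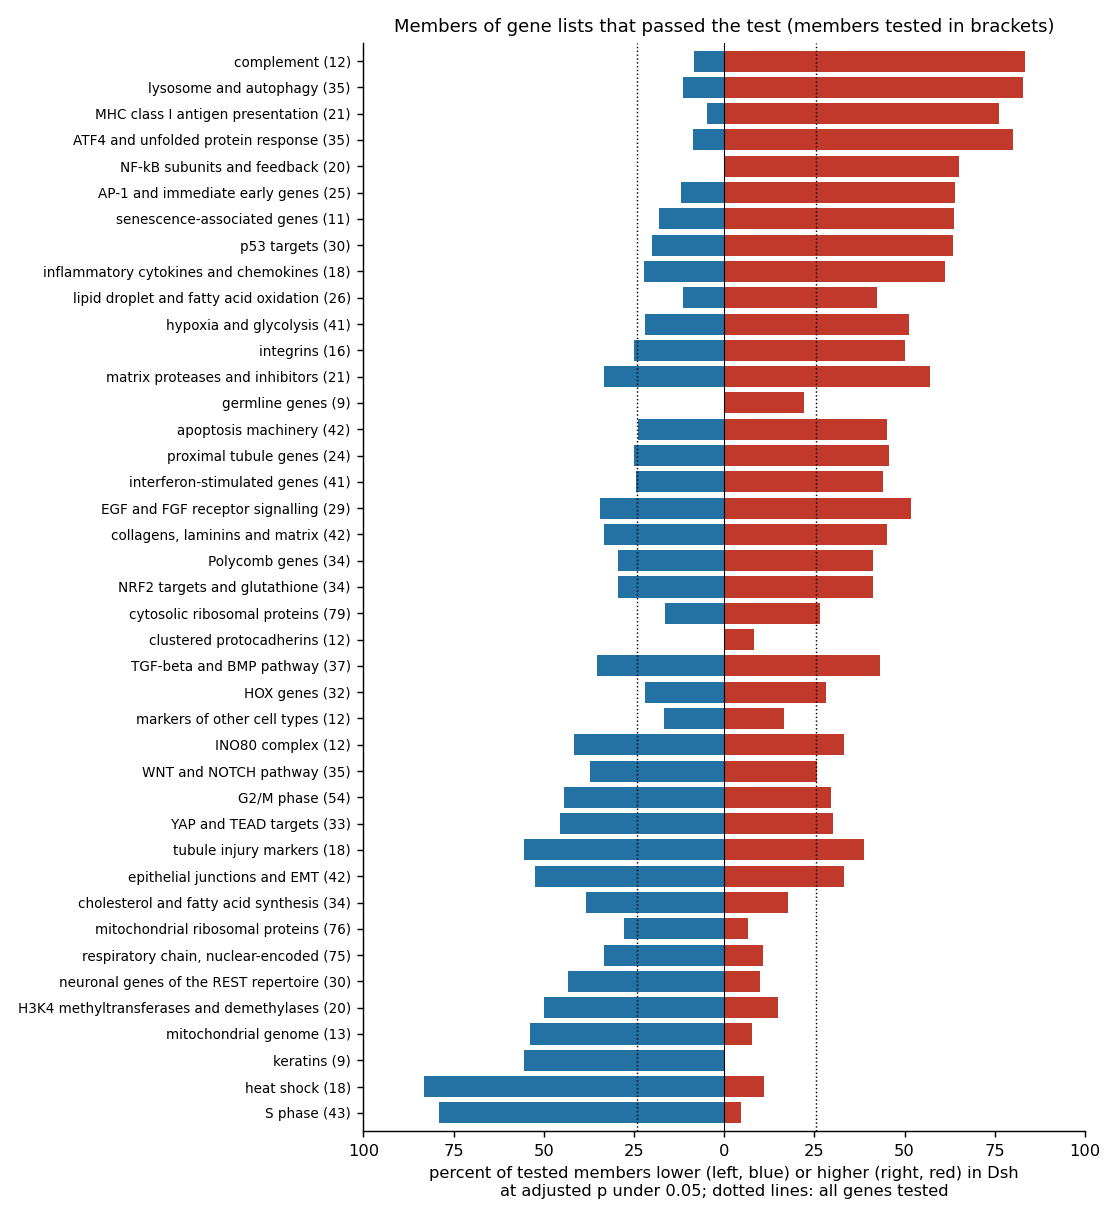
Percent of the tested members of each gene list (number tested in brackets) that were lower (blue, left) or higher (red, right) in Dsh cells at an adjusted p-value under 0.05, with the shares of all genes tested as dotted lines at 24.3% and 25.5%. Complement, lysosome, antigen presentation and ATF4 genes lie at the top with mostly higher members, and keratins, heat shock and S phase genes at the bottom with mostly lower members.

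The genes of the ATF4 pathway and the unfolded protein response were higher. ATF4 is the transcription factor made when translation initiation is limited by stress, and it turns on amino acid synthesis, amino acid transport and stress regulators. Of 35 members tested, 28 were higher and 3 lower (median log2 fold change 0.63), and for the ATF4 and amino acid genes alone the counts were 17 and 2 of 20 (median 0.85). CHAC1, which degrades glutathione, was at 5.51, 4.98 and 5.32 CPM in shNC and 29.3, 29.4 and 27.0 CPM in Dsh libraries (log2 fold change 2.44 ± 0.12 SE, adjusted p = 3.49e-17). DDIT3, which encodes the stress factor CHOP, was at 14.8, 12.9 and 14.6 CPM in shNC and 61.0, 57.8 and 56.6 CPM in Dsh libraries (log2 fold change 2.06 ± 0.083 SE, adjusted p = 3.72e-19). SESN2, a leucine sensor that restrains mTORC1, was at 45.8, 40.7 and 48.2 CPM in shNC and 196, 185 and 180.5 CPM in Dsh libraries (log2 fold change 2.06 ± 0.059 SE, adjusted p = 1.00e-22). For these 3 genes the lowest Dsh library was at least 3 times as high as the highest shNC library. NUPR1, a small stress-induced chromatin protein, rose from 1.20 to 6.43 CPM, and the cystine transporter gene SLC7A11 rose from 18.7 to 48.8 CPM. ATF5 (log2 fold change -0.98), HERPUD1 (-0.47) and VLDLR (-0.17) were lower. Of the 15 genes of the unfolded protein response, in which the endoplasmic reticulum raises its chaperones, 11 were higher and 1 was lower, with a smaller median of 0.30.

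The cytosolic chaperones went the other way. Of 18 heat shock genes, 15 were lower and 2 higher (median log2 fold change -0.40). HSP90AA1, the stress-inducible form of HSP90, was at 1428, 1469 and 1458 CPM in shNC and 481, 501 and 539 CPM in Dsh libraries (log2 fold change -1.51 ± 0.04 SE, adjusted p = 1.86e-23). HSPA8, the constitutive HSC70 chaperone, was at 1476, 1503 and 1482 CPM in shNC and 804, 774 and 834 CPM in Dsh libraries (log2 fold change -0.88 ± 0.036 SE, adjusted p = 7.17e-19). All 3 Dsh libraries lay under the shNC range for each. HSPA1A and HSPA1B fell by 1.03 and 0.68 on the log2 scale, but these near-identical copies share reads and their separate values are uncertain. HSF1, which encodes the transcription factor that drives these genes, was higher (123 to 166 CPM, log2 fold change 0.44), and so was the mitochondrial chaperone HSPA9 (0.25).

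**Figure D4:**
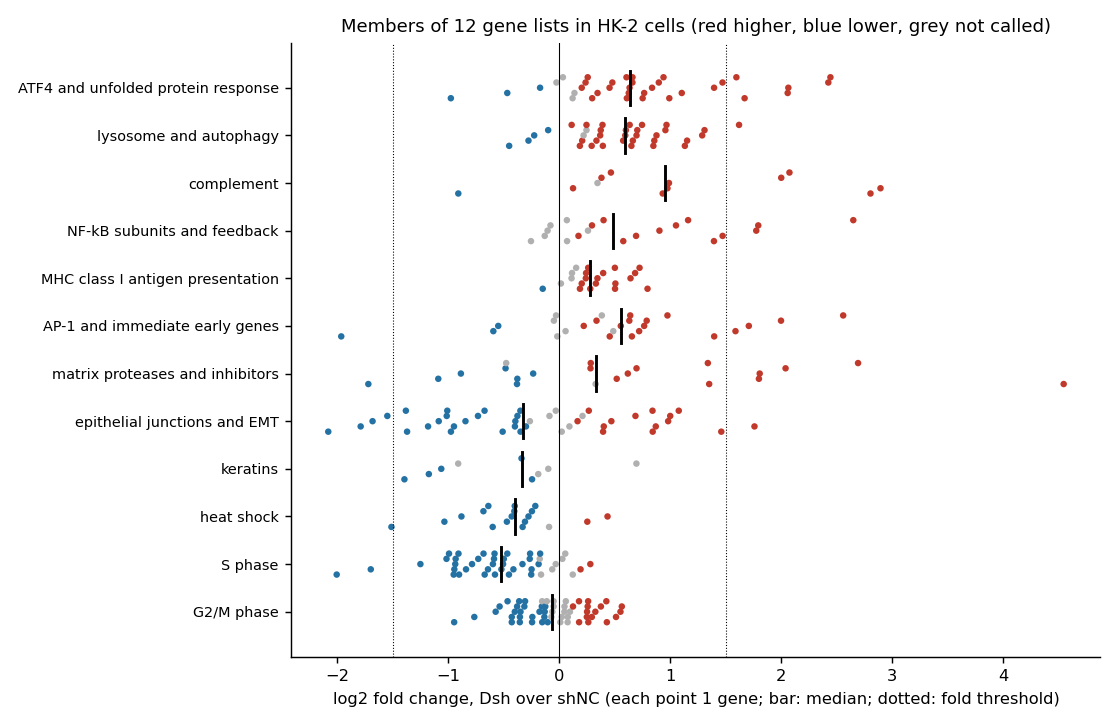
Log2 fold change of Dsh over shNC (horizontal axis) for the members of a selection of gene lists, with each point being 1 gene (red higher, blue lower, grey not called), a vertical bar for the list's median and dotted lines at the fold threshold. The ATF4, lysosome, complement and NF-kB lists lie mostly to the right of 0, the heat shock and S phase lists mostly to the left, and the G2/M list on both sides.

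Genes that brake the cell cycle and promote cell death were more often higher than lower. Of 30 p53 target genes, 19 were higher and 6 lower (median log2 fold change 0.37), and within them 9 of 11 cell cycle brakes were higher and 2 lower. GDF15, a stress-induced secreted factor, rose from 58.9 to 274 CPM (2.23, SE 0.057, adjusted p = 1.03e-23), and GADD45A from 18.4 to 77.2 CPM. CDKN1A, which encodes the cyclin-dependent kinase inhibitor p21, was at 50.2, 47.6 and 52.9 CPM in shNC and 148, 143 and 152 CPM in Dsh libraries (log2 fold change 1.56 ± 0.055 SE, adjusted p = 1.88e-20), with no overlap. TNFRSF10B, the TRAIL death receptor DR5, was at 132, 133 and 136 CPM in shNC and 468, 469.5 and 480.0 CPM in Dsh libraries (log2 fold change 1.83 ± 0.043 SE, adjusted p = 8.89e-25), also with no overlap and with little spread in either group. MDM2, the p53 ubiquitin ligase and itself a p53 target, fell from 60.9 to 42.2 CPM (log2 fold change -0.52), and TP53I3, TRIAP1 and XPC were lower too (-1.42, -0.61 and -0.59). SESN2, GDF15, GADD45A and TNFRSF10B are also known targets of the ATF4 and CHOP branch described above. The papillomavirus oncogenes with which HK-2 cells were made are known to act on p53 and on the retinoblastoma protein, and the levels of neither protein were measured here.

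Of 42 apoptosis genes, 19 were higher and 10 lower (median log2 fold change 0.09). The BH3-only genes, which start the mitochondrial pathway of death, had 6 higher of 8 tested (median 0.78). PMAIP1, which encodes NOXA, rose from 32.8 to 104 CPM (1.68, SE 0.062, adjusted p = 3.96e-20) and BMF from 27.3 to 65.3 CPM. FAS, a death receptor, rose from 9.07 to 21.6 CPM. BCL2, the survival protein that BH3-only proteins oppose, was at 45.1, 51.7 and 45.0 CPM in shNC and 17.9, 17.4 and 16.9 CPM in Dsh libraries (log2 fold change -1.43 ± 0.086 SE, adjusted p = 6.63e-15), with every Dsh library lower. Survival genes as a set were divided, with 4 higher and 3 lower of 9 tested (median log2 fold change 0.10). TNFRSF21 and RIPK1, members of the death receptor pathway, were lower as well (log2 fold change -1.25 and -0.80). The caspases and their adaptors were divided, with 3 higher and 5 lower of 14.

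Of 11 genes tested from a list associated with senescence, 7 were higher and 2 lower (median log2 fold change 0.69). HMGA2, an architectural chromatin protein of growing and senescent cells, was at 182, 195 and 185 CPM in shNC and 895, 947 and 909.9 CPM in Dsh libraries (log2 fold change 2.30 ± 0.043 SE, adjusted p = 3.17e-27), and HMGA1 rose from 268 to 683 CPM. LMNB1, which encodes lamin B1, fell from 259 to 174 CPM (-0.57, SE 0.043, adjusted p = 1.84e-12), and IGFBP3 fell from 86.4 to 47.3 CPM. CDKN1A and GDF15 stand in this list and in others, so their counts are not independent.

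The lysosome and autophagy genes were higher nearly throughout. Lysosomes digest material from endocytosis and autophagy, and many of their genes share control by the factors TFEB and TFE3. Of 35 members, 29 were higher and 4 lower (median log2 fold change 0.60), with 19 higher and 4 lower of 23 lysosome genes and 10 higher of 12 autophagy genes. NPC1, the cholesterol exporter of the lysosome, was at 190.0, 199.7 and 189 CPM in shNC and 599, 573 and 599 CPM in Dsh libraries (log2 fold change 1.62 ± 0.042 SE, adjusted p = 1.22e-23). PSAP, the precursor of the saposins that help degrade sphingolipids, was at 2008, 1904 and 1976 CPM in shNC and 4340, 4244 and 4435 CPM in Dsh libraries (log2 fold change 1.15 ± 0.032 SE, adjusted p = 6.77e-23). The groups did not overlap for either, and replicates of PSAP lay close together. TFEB itself rose from 6.98 to 17.2 CPM (1.31, SE 0.13, adjusted p = 7.37e-10), and the protease gene CTSD from 567 to 1378 CPM. SQSTM1, the autophagy receptor p62, rose from 261 to 504 CPM. MITF, ATP6V1A, GLA and LAMP1 were the lower members (log2 fold change -0.45, -0.28, -0.23 and -0.10).

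Genes of cholesterol and fatty acid synthesis were divided, with 6 higher and 13 lower of 34 (median log2 fold change -0.02). HMGCS1, the enzyme that makes HMG-CoA, fell from 179.6 to 64.5 CPM (-1.47, SE 0.053, adjusted p = 2.65e-20), and ELOVL6 and FADS2 fell by 1.05 and 0.98 on the log2 scale. The regulator SREBF2 was higher (log2 fold change 0.53), as were MSMO1 and SC5D (0.71 and 0.66).

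Complement genes were higher in Dsh cells. Complement is a cascade of plasma proteins that is also made locally by tubule cells. Of 12 tested, 10 were higher and 1 lower (median log2 fold change 0.95), and 4 passed the fold threshold. C1S, the partner protease of C1R, was at 24.2, 24.7 and 30.9 CPM in shNC and 99.1, 104 and 115 CPM in Dsh libraries (log2 fold change 2.00 ± 0.077 SE, adjusted p = 1.37e-19), and C1R was at 5.34, 5.32 and 4.90 CPM in shNC and 38.9, 38.5 and 37.7 CPM in Dsh libraries (log2 fold change 2.89 ± 0.11 SE, adjusted p = 6.83e-20). CFB, the protease of the alternative pathway that acts with C3, rose from 1.56 to 6.53 CPM. C5 was lower (13.5 to 7.14 CPM, log2 fold change -0.91). C4A and C4B are near-identical copies, and their separate counts are uncertain.

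Of 20 NF-kB subunit and feedback genes, 13 were higher and 7 were not called (median log2 fold change 0.49). TNFAIP3, which encodes the feedback inhibitor A20, was at 28.2, 30.3 and 32.0 CPM in shNC and 110.5, 97.7 and 104 CPM in Dsh libraries (log2 fold change 1.79 ± 0.067 SE, adjusted p = 5.41e-20), and ICAM1, a leukocyte adhesion molecule, rose from 102 to 280.4 CPM (1.47, SE 0.048, adjusted p = 2.22e-21). IRAK2 rose from 16.1 to 54.7 CPM. TRAF1, a low-expressed adaptor, was at 0.501, 0.392 and 1.98 CPM in shNC and 5.47, 4.48 and 8.38 CPM in Dsh libraries (log2 fold change 2.65, adjusted p = 2.11e-07), where the third library of each group was the highest. Of 18 cytokine and chemokine genes, 11 were higher and 4 lower (median 0.71). CSF2 and CSF1, the colony stimulating factors of granulocytes, macrophages and monocytes, rose from 3.79 to 25.2 CPM and from 69.3 to 210.0 CPM. IL11, an IL-6 family cytokine, rose from 9.90 to 33.1 CPM, and the neutrophil chemokine gene CXCL5 from 57.6 to 151 CPM. CX3CL1 and CCL2, which attract monocytes and T cells, fell (-0.96 and -0.80).

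Antigen presentation genes of MHC class I were higher by small amounts. Of 21 tested, 16 were higher and 1, CANX, was lower (median log2 fold change 0.28, largest 0.80). These calls depended on the fit, and with all 12 HK-2 libraries 5 were higher and 0 lower. HLA-C was at 157, 144 and 159 CPM in shNC and 229.6, 233 and 252 CPM in Dsh libraries (log2 fold change 0.64 ± 0.049 SE, adjusted p = 1.70e-12), the peptide-trimming ERAP1 rose from 67.5 to 117 CPM and the immunoproteasome subunit PSMB9 from 16.5 to 27.2 CPM. The HLA genes share sequence with each other, and their separate values are uncertain. Interferon-stimulated genes were divided, with 18 higher and 10 lower of 41 (median 0.23). IFI44L, IFIT2 and USP18 were higher (1.65, 1.53 and 1.41), while IFITM3, IFITM1 and MYD88 were lower (-1.34, -0.81 and -1.05).

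Genes of the AP-1 family and other immediate early genes, which respond within minutes to growth factors and stress, were more often higher. Of 25 tested, 16 were higher and 3 lower (median log2 fold change 0.56). FOSL1, a Fos-family subunit of AP-1 abundant in migrating epithelial cells, was at 32.8, 39.0 and 37.2 CPM in shNC and 125, 105 and 124 CPM in Dsh libraries (log2 fold change 1.71 ± 0.071 SE, adjusted p = 7.78e-19). FOSB, another subunit, rose from 4.30 to 17.1 CPM, the orphan receptor gene NR4A1 from 1.06 to 6.22 CPM, and IER3 from 60.6 to 181 CPM. EGR1, a factor induced by serum through ERK, went against this direction, at 28.3, 27.8 and 26.4 CPM in shNC and 6.84, 7.37 and 6.83 CPM in Dsh libraries (log2 fold change -1.96 ± 0.11 SE, adjusted p = 2.28e-15). No library overlapped between the groups for EGR1, BATF3 or DUSP1, which were the 3 lower members.

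In the EGF and FGF receptor list, the feedback genes and the receptors differed. Feedback genes are switched on by ERK signalling and dampen it, and 10 of 11 were higher and 1 lower (median log2 fold change 1.01). SPRY2 rose from 15.9 to 50.4 CPM (1.67, SE 0.091, adjusted p = 7.45e-16), DUSP6, an ERK phosphatase, from 20.3 to 46.0 CPM, and the ERK-induced factor ETV5 from 49.9 to 123 CPM. LRIG1 was the lower one (12.8 to 5.22 CPM). Of 8 receptor genes, 2 were higher and 6 lower, with FGFR2 the largest change and FGFR3 at 98.7 to 48.0 CPM. The ligand TGFA rose from 33.2 to 101.3 CPM and the ligand HBEGF fell from 29.0 to 15.6 CPM.

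The plasminogen system rose, while the matrix metalloproteinases were divided. All 5 genes of the serine protease system tested were higher (median log2 fold change 1.80). PLAU, which encodes urokinase, was at 253, 249.9 and 265 CPM in shNC and 959.5, 822 and 880.0 CPM in Dsh libraries (log2 fold change 1.80 ± 0.047 SE, adjusted p = 1.14e-23), its receptor PLAUR rose from 12.2 to 49.9 CPM, and PLAT, tissue plasminogen activator, from 15.5 to 54.1 CPM. The metalloproteinases had 5 higher and 6 lower of 13 (median -0.23): against the rise of MMP1, MMP24 fell from 76.2 to 23.1 CPM, ADAMTS1 from 27.7 to 14.9 CPM and MMP7 from 64.1 to 45.6 CPM. F3, the tissue factor that starts coagulation and a target of the YAP coactivator, fell from 79.6 to 21.2 CPM (-1.90, SE 0.082, adjusted p = 1.83e-18).

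The AP-1 letters and those of the E-box and the heat shock element read alike on both strands. Promoter letters were read in 300-base windows from 250 bases before to 50 bases after the RefSeq start of each gene (GRCh38.p14), on both strands, for 11296 of the genes tested, 225 of the higher and 193 of the lower genes past the fold threshold. The AP-1 letters TGANTCA were in 40 of the 225 higher windows (17.8%), in 11 of the 193 lower windows (5.7%), in 4.77% of the windows of all genes tested and in 7.76% of all promoters in the table. With only the 150 bases before the start the shares were 11.6%, 3.63% and 2.55%. The YY1 letters AANATGGC were in 3.11% of the higher and 6.22% of the lower windows, against 9.89% of those tested. The ATF4 composite letters TGATGNAA were in 4.89% of the higher windows and in 0 of the 193 lower windows, against 1.72% of those tested and 3.67% of all promoters. The TEAD letters GGAATG were in 11.6% and 17.1% of the higher and lower windows, against 10.8%. These shares describe letters in a window and were not tested, and the ATF4 and heat shock letters were searched after the expression results were seen.

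**Figure D5:**
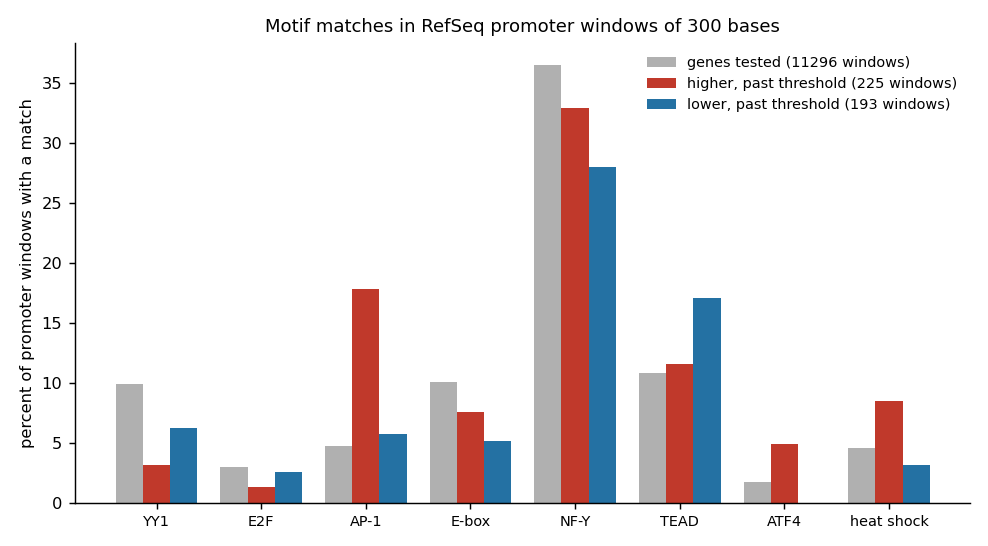
Percent of 300-base promoter windows (vertical axis) that hold each motif (horizontal axis) among genes higher past the fold threshold (225 windows), genes lower past it (193) and all genes tested (11296). The AP-1 bars stand out, at 17.8% for higher, 5.7% for lower and 4.77% for all genes.

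Of the 86 named genes past the fold threshold, 59 had a window. Stretches of 80 bases with the AP-1 letters are given for genes among these 59, 5′ to 3′ on the strand of the gene. The matched letters are in capitals, and the set shown may not be complete. The higher genes shown belong to different groups above (injury marker, cytokine, protease receptor, integrin, hypoxia gene and CHOP), while F3 is a lower gene with a pair of matches.
LCN2, chr9:128149366-128149445, plus strand: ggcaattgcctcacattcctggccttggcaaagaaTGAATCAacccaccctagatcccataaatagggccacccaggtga
IL11, chr19:55370515-55370594, minus strand: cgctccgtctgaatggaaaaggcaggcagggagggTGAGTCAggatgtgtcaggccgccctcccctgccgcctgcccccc
PLAUR, chr19:43670311-43670390, minus strand: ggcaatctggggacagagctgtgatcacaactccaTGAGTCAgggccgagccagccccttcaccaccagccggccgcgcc
ITGA5, chr12:54419228-54419307, minus strand: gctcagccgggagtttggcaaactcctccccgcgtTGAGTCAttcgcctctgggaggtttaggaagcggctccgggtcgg
F3, chr1:94541930-94542009, minus strand: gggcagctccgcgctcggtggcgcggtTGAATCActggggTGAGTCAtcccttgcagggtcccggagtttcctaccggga
CA9, chr9:35673816-35673895, plus strand: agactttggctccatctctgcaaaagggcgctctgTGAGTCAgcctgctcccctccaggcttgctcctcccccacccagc
DDIT3, chr12:57520685-57520764, minus strand: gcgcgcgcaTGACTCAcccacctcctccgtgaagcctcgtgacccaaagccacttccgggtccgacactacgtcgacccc
The composite letters stood in 5 of 31 windows of the ATF4 and unfolded protein response list. Stretches of higher members are shown, and this set too may not be complete. The letters are on the strand of the gene in ATF3 and ASNS and the reverse complement in CHAC1 and SLC3A2. ATF3, ASNS and SLC3A2 were added for these letters after their values were seen.
ATF3, chr1:212565181-212565260, plus strand: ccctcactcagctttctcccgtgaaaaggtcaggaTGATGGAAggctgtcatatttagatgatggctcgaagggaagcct
CHAC1, chr15:40953227-40953306, plus strand: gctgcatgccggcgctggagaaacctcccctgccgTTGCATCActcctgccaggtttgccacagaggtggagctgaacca
ASNS, chr7:97872432-97872511, minus strand: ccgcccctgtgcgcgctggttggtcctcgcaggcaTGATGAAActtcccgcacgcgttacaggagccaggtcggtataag
SLC3A2, chr11:62881669-62881748, plus strand: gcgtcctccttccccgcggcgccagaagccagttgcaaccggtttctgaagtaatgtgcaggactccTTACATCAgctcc
The KDM5C promoter, shown because its transcript was targeted, holds the YY1 letters just after the start, as did 9.89% of the windows of genes tested. KDM5C had 246 CPM in shYY1 cells against 194 CPM in shNC cells. This difference and any link to the letters were not tested.
KDM5C, chrX:53225158-53225237, minus strand: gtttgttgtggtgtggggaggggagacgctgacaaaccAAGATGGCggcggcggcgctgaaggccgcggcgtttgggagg

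Further lists had letters of their known regulators in more windows than the genes tested, again as a description. The E2F letters TTTNGCGC were in 28.1% of 32 S phase windows (2.96% of those tested). The CCAAT letters of NF-Y were in 77.4% of 31 ATF4 and unfolded protein response windows and 71.9% of the S phase windows (36.5%). The E-box CACGTG was in 24% of 25 lysosome and autophagy windows (10.1%), and the heat shock letters GAANNTTC in 37.5% of 16 heat shock windows (4.59%). Past the fold threshold, the heat shock letters were in 8.44% of the higher and 3.11% of the lower windows.

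DNA replication genes were lower. In S phase the MCM helicase, the GINS complex and nucleotide enzymes copy the genome, mostly under control of E2F factors. Of 43 S phase genes, 34 were lower and 2 higher (median log2 fold change -0.52). UNG, the uracil DNA glycosylase, was at 119.6, 108 and 110.2 CPM in shNC and 28.5, 28.0 and 27.3 CPM in Dsh libraries (log2 fold change -2.0 ± 0.064 SE, adjusted p = 1.55e-21). GINS2, a subunit of the replicative helicase, was at 40.4, 35.5 and 35.3 CPM in shNC and 13.3, 9.37 and 11.5 CPM in Dsh libraries (log2 fold change -1.70 ± 0.11 SE, adjusted p = 2.76e-14). MCM4, another helicase subunit, was at 542, 530.0 and 543 CPM in shNC and 276, 261 and 258 CPM in Dsh libraries (log2 fold change -1.01 ± 0.041 SE, adjusted p = 5.23e-19). Each of the 3 was lower in every Dsh library. E2F8, an E2F-family repressor, fell from 15.4 to 6.43 CPM, and RPA2 and POLD3 were the higher members (log2 fold change 0.28 and 0.19). Of 54 G2/M genes, 16 were higher and 24 lower (median -0.07). MKI67, the proliferation marker Ki-67, fell from 872 to 598 CPM, and the chromatin genes CBX5 and TMPO fell (-0.95 and -0.76), while the mitotic genes NEK2, GAS2L3, CDC25C and NUF2 rose (0.56, 0.55, 0.51 and 0.43). The 6 genes the study examined, which it chose partly on libraries of this series so that their direction is not independent evidence, were all lower, from JAM3, a junctional adhesion molecule (38.6, 42.5 and 44.9 CPM in shNC and 15.2, 16.9 and 16.4 CPM in Dsh libraries), to the kinetochore gene KNTC1 (126 to 115 CPM, adjusted p = 0.0494), whose call was lost under most alternatives. SMC2, LMNB1 and FOXM1 fell by 0.57, 0.57 and 0.51 and SMC4 by 0.24 on the log2 scale.

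Epithelial genes were more often lower and mesenchymal ones more often higher. Of 27 epithelial junction genes, 18 were lower and 6 higher (median log2 fold change -0.51). Of 6 epithelial regulators tested, 4 were lower and 2 higher (median -0.39), with 1 rise past the fold threshold. Of 9 mesenchymal genes 6 were higher and 3 not called (median 0.47). CDH3, which encodes P-cadherin, fell from 36.6 to 8.61 CPM (-2.08, SE 0.10, adjusted p = 9.50e-17), the tight junction gene CGN from 24.3 to 6.99 CPM, the desmosome gene PKP2 from 31.6 to 12.1 CPM, and EPCAM from 66.1 to 32.7 CPM. CDH1, E-cadherin, was low in all libraries, at 1.11, 2.02 and 0.886 CPM in shNC and 0.595, 0.354 and 0.402 CPM in Dsh libraries, and fell by 1.55 on the log2 scale. CLDN1 and CLDN16, claudins of tight junctions, went the other way, CLDN1 from 381 to 758 CPM and CLDN16 from 31.8 to 66.7 CPM. VIM, the intermediate filament of mesenchymal cells, rose from 437 to 602 CPM (0.47, SE 0.043, adjusted p = 9.65e-11), and ZEB2, a repressor of epithelial genes, from 18.4 to 36.1 CPM. Of 9 keratins tested, 5 were lower and 4 not called (median -0.34). KRT8 was at 1876, 1782 and 1880 CPM in shNC and 815, 767 and 861 CPM in Dsh libraries (log2 fold change -1.17 ± 0.039 SE, adjusted p = 3.83e-21), its partner KRT18 fell from 606 to 229.7 CPM and KRT7 from 119.8 to 57.1 CPM. CD24, a glycoprotein of tubule progenitor and injured cells, fell from 1027 to 299.5 CPM and SOX9 from 28.4 to 12.1 CPM, while SPP1, osteopontin, rose from 1409 to 2821 CPM. These belong to an injury list of 18 genes with 7 higher and 10 lower.

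Markers of other cell types were examined beside this, since fibroblast genes moved with the double knockdown. Of 34 such markers 22 were under the filter, and of the 12 tested 2 were higher and 2 lower. The higher ones were DCN, decorin, with 0, 0.336 and 0.104 CPM in shNC and 6.72, 7.96 and 7.24 CPM in Dsh libraries, and LUM, lumican, with 11.4, 11.5 and 8.96 CPM in shNC and 61.8, 65.5 and 57.5 CPM in Dsh libraries. The summed level of the 9 fibroblast and smooth muscle markers was 43.3 to 45.4 CPM in shNC and 94.6 to 105 CPM in Dsh libraries. The defining fibroblast markers did not follow: COL1A1 had 31.3 and 28.6 CPM (adjusted p = 0.231), COL3A1 at most 3 counts in a library, and PDGFRB 1.20 and 0.765 CPM. The part of other cells in these results was not tested.

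Matrix genes changed in both directions. Of 42 tested, 19 were higher and 14 lower (median log2 fold change 0.17). Laminins and other basement membrane genes had 9 higher and 2 lower of 13 (median 0.55), with LAMB3 at 63.1, 63.8 and 69.1 CPM in shNC and 242, 245 and 257 CPM in Dsh libraries (log2 fold change 1.93 ± 0.051 SE, adjusted p = 1.45e-23). Collagens had 4 higher and 6 lower of 15, with COL12A1 down from 54.0 to 11.2 CPM, COL8A1 from 103 to 22.6 CPM and COL4A4 from 9.34 to 2.49 CPM. THBS1, a matricellular protein that activates latent TGF-beta, was at 734, 761 and 707 CPM in shNC and 138, 127 and 136 CPM in Dsh libraries (log2 fold change -2.45 ± 0.045 SE, adjusted p = 3.17e-27), with a wide gap between the groups. LOX, the collagen cross-linking enzyme, FBN1 and TNC rose (1.39, 1.07 and 0.98). Of 16 integrins, 8 were higher and 4 lower: ITGA5, the fibronectin receptor subunit, was at 178, 176 and 173 CPM in shNC and 586, 558 and 625 CPM in Dsh libraries (log2 fold change 1.75 ± 0.044 SE, adjusted p = 7.75e-24), ITGA3 rose from 762 to 1524 CPM, and ITGB8 and ITGB2 fell from 114 to 55.7 CPM and from 10.9 to 2.97 CPM.

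In the TGF-beta and BMP list, 16 were higher and 13 lower of 37. INHBA, the activin A subunit, was at 138, 158 and 155 CPM in shNC and 547, 519 and 607 CPM in Dsh libraries (log2 fold change 1.90 ± 0.053 SE, adjusted p = 6.77e-23), and the BMP antagonist GREM1 rose from 47.7 to 124 CPM. BMP4 and the BMP target genes ID1 and ID3 fell, from 22.2 to 6.02 CPM, 198 to 72.8 CPM and 103 to 32.0 CPM. The ligand BMP4 and these targets thus moved in the direction opposite to INHBA and GREM1. Targets of YAP and TEAD had 6 higher and 13 lower of 21, and the genes of that pathway itself 4 and 2 of 12, with NT5E up from 56.0 to 250.3 CPM and CCN2, the classical target, down from 114 to 64.5 CPM. WNT and NOTCH genes had 9 higher and 13 lower of 35, with NOTCH2 up from 394 to 849 CPM and WNT5A and WNT7B down from 42.0 to 17.5 CPM and from 25.3 to 9.34 CPM.

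Genes of the hypoxia response had 13 higher and 2 lower of 20 (median log2 fold change 0.39), and with the glycolytic enzymes added 21 and 9 of 41. The carbonic anhydrase genes CA9 and CA12 rose from 0.780 to 8.74 CPM and from 6.09 to 32.6 CPM, the glucose transporter gene SLC2A3 from 107 to 407 CPM (1.93, SE 0.046, adjusted p = 1.25e-24) and ADM, adrenomedullin, from 3.94 to 13.7 CPM. EGLN3, itself a hypoxia target, fell (-0.87), as did the glycolytic enzymes PFKL, PKM and GPI (-0.72, -0.37 and -0.36). NRF2 targets and glutathione genes were divided, with 14 higher and 10 lower of 34: TXNRD1 and GSTO1 rose (0.94 and 1.00) while NQO1 and MGST1 fell (-0.77 and -0.85). Of 26 lipid droplet and fatty acid oxidation genes, 11 were higher and 3 lower, with PPARG up from 17.9 to 35.4 CPM. Of 7 metallothionein genes and regulators, 2 were higher and 3 lower.

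Genes of mitochondrial energy production had small changes, and their calls depended on the fit. Of 75 nuclear-encoded respiratory chain genes, 25 were lower and 8 higher (median log2 fold change -0.12), of 76 mitochondrial ribosomal proteins 21 were lower and 5 higher (median -0.13), and of 13 genes of the mitochondrial genome 7 were lower and 1, MT-ND2, higher, against 24.3% lower and 25.5% higher of all genes. With all 12 HK-2 libraries in the fit, 6, 5 and 0 were lower and 1, 1 and 0 higher. ATP5F1A, a subunit of ATP synthase, fell from 370.1 to 236 CPM (-0.64, SE 0.042, adjusted p = 5.14e-14), MRPL1 from 12.4 to 5.36 CPM and MT-CO1 from 13147 to 10767 CPM, while SDHB rose from 54.4 to 81.4 CPM. All changes among the respiratory chain genes lay between -0.69 and 0.59. Cytosolic ribosomal proteins had 21 higher and 13 lower of 79, but this order turned to 16 and 25 without Dsh replicate 3.

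Most lists tied to the known partners and targets of KDM5C and YY1 held both higher and lower members. Of 34 Polycomb genes, 14 were higher and 10 lower, with PHC2, JARID2, PHF1 and CBX7 up (1.08, 1.05, 1.02 and 1.01) and PHF19 down (-0.76). Of 12 INO80 genes, 4 were higher and 5 lower, within -0.52 to 0.56 on the log2 scale. Of 20 writers and erasers of H3K4 methylation, 10 were lower and 3 higher, and beside KDM5C the methyltransferases SETD1A and SETD1B fell (-0.53 and -0.43). Of 48 germline genes, which KDM5C is known to repress in other cells, 39 were under the filter, among them all 18 cancer-testis antigens, and of the 9 tested TDRKH and SYCP2 were higher (0.60 and 0.15). Of 30 neuronal genes of the REST repertoire, 13 were lower and 3 higher, and NEFH, a neurofilament, fell from 146 to 51.5 CPM (-1.499, SE 0.059, adjusted p = 2.73e-19) while VGF rose from 27.0 to 66.9 CPM. Of 32 HOX genes, 9 were higher and 7 lower, and the 9 of the HOXB cluster had 6 higher and 3 not called, with HOXB8 up from 6.62 to 12.3 CPM. Of 12 clustered protocadherins, PCDHGC3 alone was called, higher (0.39).

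The double knockdown in ACHN cells, a renal cancer line, allows a test of whether an effect differed between the lines. The 12 shNC and Dsh libraries of both lines entered a single model. The targeted transcripts fell less in ACHN cells. KDM5C went from 70.8 to 40.8 CPM there (log2 fold change -0.80) and YY1 from 139 to 97.4 CPM (-0.51). In HK-2 cells both had a log2 fold change of -1.49. An effect of the line and of the depth of the knockdown therefore cannot be told apart here. Among 18087 genes, the effect was higher in HK-2 than in ACHN cells for 4101 (22.7%) and lower for 4220 (23.3%) at an adjusted p-value under 0.05. The 24 genes named above for the size of their change were chosen in the same HK-2 libraries, which favours larger changes in HK-2 cells. Of these, 18 differed by this test. MMP1, SLN, RAP1GAP2, SEMA5B, LAD1 and EPPK1 did not pass it, which does not show that they changed alike, and MMP1, SLN and SEMA5B were under the filter in ACHN cells alone.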

How the data were processed

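RNA-seq of 6 HK-2 libraries was analysed, 3 of HK2_shNC and 3 of HK2_Dsh, grouped by their labels, with 6 single-knockdown HK-2 libraries for levels and 6 ACHN libraries for the test between lines. Total RNA was extracted with TRIzol and sequenced as paired-end reads. According to the submitters' processing notes, reads were aligned with HISAT2 2.0.5 and counted with featureCounts 1.5.0-p3 (the file headers name 2.0.1, Ensembl release 84, GRCh38). The deposited values are raw read counts per gene, made by the authors without normalization and without strand. Of 60675 genes, 4117 without a symbol held 0.304% of the counts of the 6 libraries.

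Counts were scaled by TMM factors and tested with edgeR 4.0.16 (R 4.3.3) after its filter on low counts: quasi-likelihood test, Benjamini-Hochberg adjustment, threshold 0.05, fold threshold 1.5 on the log2 scale. The 2 groups alone entered the fit. Standard errors came from the F statistic. With 3 against 3 libraries an exact permutation test of 1 gene cannot go below p = 0.1. Replicates differed by more than sampling noise (chi-square per gene 3.23 to 4.67). On simulated counts, 100% of 200 changed genes were called past the fold threshold, and unchanged genes made up 0.498% of those calls (16217 genes). For the difference between lines, where a call needed only an adjusted p-value under 0.05, the shares were 100% and 7.834% (18087 genes). The share of unchanged genes among HK-2 calls at any fold was not simulated. In both simulations every planted change was larger than the fold threshold and lay in a gene above 5 CPM. How often smaller changes or less expressed genes are called was not covered.

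The gene lists, the part of the series described and the rules were chosen with earlier results of these data known. Genes named are KDM5C, YY1 and relatives, 6 genes of the study, the 12 higher and 12 lower protein-coding genes with the largest change past the fold threshold (10 CPM or more in the higher group, no overlap), up to 4 higher and 4 lower members per list (at least 5 CPM) and defining markers. SOD2 and DDX58 of the lists matched no gene. Motifs were searched in RefSeq promoter windows (GRCh38.p14). The alternatives were DESeq2 1.42.0, DESeq2 size factors, library totals, no filter, a minimum of 10 counts in each library of 1 group, a fit of all 12 HK-2 libraries, replicate numbers as a block, unadjusted p-values and each library left out. A fit without shKDM5C replicate 1 was added after the data were seen. Single values of a few list members are not reported here.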

Additional observations from a re-analysis of the deposited data

Results flagged for a closer look

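The 24 genes named for the size of their change were chosen in the HK-2 libraries, which favours larger changes in HK-2 cells. The test of a difference between cell lines (edgeR, adjusted p-value under 0.05, HK-2 minus ACHN, log2 scale) drew attention to 18 of them. In 4 genes the fitted change in ACHN cells had the opposite sign, although that of INHBE and LCN2 in ACHN cells was not called (adjusted p = 0.093 and 0.0773): NECAB2 differed by 5.22 (4.46 in HK-2 and -0.77 in ACHN cells, adjusted p = 1.07e-12), INHBE by 3.98 (3.23 and -0.76, adjusted p = 2.17e-10), LCN2 by 3.79 (3.19 and -0.62, adjusted p = 2.20e-13) and LYNX1 by -3.43 (-2.76 and 0.65, adjusted p = 2.05e-11).

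Among genes higher in both lines, the increase was larger in HK-2 cells for PAPPA2 by 4.38 (6.42 against 2.02, adjusted p = 1.24e-10), GOLGA7B by 2.21 (2.87 against 0.64, adjusted p = 3.49e-09), C1R by 1.77 (2.89 against 1.10, adjusted p = 6.41e-10), CD82 by 1.05 (2.95 against 1.89, adjusted p = 0.000221) and ASB2 by 0.66 (3.41 against 2.73, adjusted p = 0.046). It was smaller in HK-2 cells for CLEC4E by -2.81 (2.92 against 5.73, adjusted p = 0.000908) and C3 by -1.15 (2.80 against 3.93, adjusted p = 2.87e-12). CLEC4E had 0, 0.162 and 0 CPM in ACHN shNC libraries and a mean of 3.20 CPM in ACHN Dsh libraries. Its fold change in ACHN cells therefore rests on very few control reads and is uncertain.

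The fitted decrease of SLIT2 in ACHN cells was not called (edgeR's quasi-likelihood test, adjusted p = 0.139). Among genes with a fitted decrease in both lines, the decrease was larger in HK-2 cells for ZBED2 by -3.21 (-5.17 against -1.98, adjusted p = 2.91e-11), CBLN2 by -2.92 (-4.38 against -1.48, adjusted p = 1.86e-05), SLIT2 by -1.95 (-2.48 against -0.56, adjusted p = 1.40e-05) and ADAMTS15 by -1.12 (-2.74 against -1.64, adjusted p = 2.61e-09). It was smaller in HK-2 cells for NEBL by 1.92 (-2.71 against -4.65, adjusted p = 0.00015) and FGFR2 by 1.88 (-2.57 against -4.47, adjusted p = 9.67e-13). HR differed by -4.40 (adjusted p = 1.67e-06), with -4.17 in HK-2 cells, and was under the filter in ACHN cells alone. The reason for these differences was not tested, and both targeted transcripts fell less in ACHN than in HK-2 cells.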

How the results depend on the processing

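The counts past the fold threshold, 398 higher and 299 lower, lay between 363 and 537 and between 298 and 422 under all alternatives, the highest being without a filter on low counts. Leaving out 1 library gave 427 to 485 higher and 335 to 380 lower genes at the fold threshold, and 3770 to 3977 and 3555 to 3733 at any fold. With all 12 HK-2 libraries in the fit, 1992 genes were higher and 1922 lower at any fold, against 4128 and 3945. Without shKDM5C replicate 1 the counts were 4115 and 3920. For the difference between cell lines, leaving out 1 library gave 3996 to 4110 and 3592 to 4091 genes. No value turned in sign: of 317 named genes tested, 309 were called, and 71 lost the call under at least 1 alternative, 68 of them with all 12 HK-2 libraries and 23 under another. The order of higher and lower members turned for the cytosolic ribosomal proteins alone of the 44 lists. With the replicate number as a block, 410 genes were higher and 303 lower at the fold threshold and 4173 and 4026 at any fold. The numbers were not taken as a pairing, since deviations of same-numbered shNC and Dsh libraries correlated by 0.0259, -0.0104 and 0.0346, although not every library correlated best with its own number. Depth limits genes under about 1 CPM, where the p-value rests on few reads. Standard errors cover the spread between these libraries only.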

Other observations

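Genes of chromosome 1 were shifted upward as a whole. Of 1173 genes of chromosome 1 with at least 5 CPM in shNC cells, 43.9% were higher and 20.8% lower in Dsh cells (median log2 fold change 0.13), against 29.9% and 30.2% of 11368 genes over all chromosomes (median -0.01). On chromosome 22, 35.6% of 281 genes were higher and 26.3% lower (median 0.07). The medians of the other chromosomes lay between -0.08, on chromosome 21 with 111 genes, and 0.03, on chromosome 13 with 184 genes. Copy number was not measured, and no cause was tested. Genes named above that lie on chromosome 1 include KDM5B, SESN2, PAPPA2, GADD45A, CSF1, LAMB3, NOTCH2, RPA2, NEK2 and NUF2, all higher in Dsh cells. The rises of RPA2, NUF2 and NEK2 were small (log2 fold change 0.28, 0.43 and 0.56). LAD1, CGN, F3 and ID3, which were lower, lie there too.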
